A study of Mus musculus with 3 samples.

Results

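The 9 genes described here make, cut or bind hyaluronan. They are *Has1*, *Has2*, *Has3*, *Hyal1*, *Hyal2*, *Cemip*, *Cd44*, *Lyve1* and *Hmmr*, taken by symbol from the 33696 features of the count tables, and all 9 had UMIs (unique molecular identifiers, each marking 1 captured RNA molecule). The libraries are scRNA-seq of *tdTom*+ cells from the larynx of Lrig1CreERT2/+; ROSA26CAG-LSL-tdTomato/+ mice, which carry a tamoxifen-inducible Cre at the *Lrig1* locus and a Cre-dependent red reporter. Cells were sorted for *tdTom* 1 day after recombination. Each of the 3 libraries pooled 10 larynges (5 males and 5 females). Replicates are libraries, with n = 3 in each comparison unless libraries or cells were left out. All libraries are of this 1 condition, so every comparison below is between groups of cells within libraries. The animals' age is not given in the sources used here, and the sort could not be checked because neither the reporter nor Cre is a feature.

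Hyaluronan is a long, unbranched sugar polymer that binds water and gives the lamina propria of the vocal fold much of its viscoelasticity. It is spun out through the plasma membrane by the synthases HAS1, HAS2 and HAS3 from UDP-sugars made in the cytosol. It is cut by the hyaluronidases HYAL1, a lysosomal enzyme, and HYAL2, which is anchored at the cell surface, and its breakdown outside the cell also needs CEMIP. CD44 is its main receptor on many cells, LYVE1 a receptor of lymphatic endothelium and of some macrophages, and HMMR a hyaluronan-binding protein that is also part of the mitotic spindle.

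By the GENCODE vM39 annotation of GRCm39 (mm39), the build of the counts, *Has1* lies at chr17:18063585-18075467, *Has2* at chr15:56528342-56557999 and *Has3* at chr8:107596874-107611198. *Hyal2* and *Hyal1* are neighbours at chr9:107445086-107450171 and chr9:107454126-107458909. *Cemip* lies at chr7:83582065-83735724, *Cd44* at chr2:102641486-102732010, *Lyve1* at chr7:110448585-110462460 and *Hmmr* at chr11:40592167-40624288. *Hyal1* overlaps *Naa80* over 2824 bases and *Hyal3* over 1810 bases on the same strand, so reads there cannot be given to 1 gene and the level of *Hyal1* is uncertain. The antisense RNA *Has2os* overlaps *Has2* over 4660 bases on the other strand. Whether the counting used strand is not given in the sources used here, so reads of this pair may not be separable.

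The sequences just before the starts of *Has1* and *Cemip*, which were higher in fibroblasts, and of *Has3*, which was not, are printed with the motifs they hold. Each is the 250 bases before the start of the gene's canonical transcript in GRCm39, on the gene's strand. Capitals mark matches on either strand to the 3 motifs searched. These were the TATA box (TATAAA), the CCAAT box (the letters CCAAT) and the GC box (GGGCGG).
Has1 (chr17:18075451-18075700): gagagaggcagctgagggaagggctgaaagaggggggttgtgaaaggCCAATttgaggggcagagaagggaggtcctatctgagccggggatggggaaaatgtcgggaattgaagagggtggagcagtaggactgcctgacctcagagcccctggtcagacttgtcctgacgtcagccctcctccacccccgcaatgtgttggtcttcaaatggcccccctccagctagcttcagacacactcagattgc
Cemip (chr7:83735711-83735960): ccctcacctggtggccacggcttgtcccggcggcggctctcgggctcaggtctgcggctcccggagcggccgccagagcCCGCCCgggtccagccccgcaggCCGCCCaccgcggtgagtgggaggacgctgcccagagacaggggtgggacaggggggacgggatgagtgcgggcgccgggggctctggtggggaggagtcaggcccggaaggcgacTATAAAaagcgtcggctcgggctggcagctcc
Has3 (chr8:107597210-107597459): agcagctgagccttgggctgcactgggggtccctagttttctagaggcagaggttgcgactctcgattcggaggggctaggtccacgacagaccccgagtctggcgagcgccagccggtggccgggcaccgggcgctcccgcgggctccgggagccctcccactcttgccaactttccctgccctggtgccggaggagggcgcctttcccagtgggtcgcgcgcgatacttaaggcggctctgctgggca
*Has1* held 1 CCAAT match, and *Cemip* held 2 GC box matches and 1 TATA box match, which began 32 bases before the start. *Has3* held none of the 3, at 68.4% G and C. Among 21770 protein-coding genes, 11.9% held a TATA box in this window, 36.5% a CCAAT box and 36.3% a GC box. A match is only a description of letters.

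Cells were placed in classes by fixed markers, with at least 3 of 8 markers of a class and at most 1 of any other class. Among the fibroblast, muscle satellite and mural classes, more markers of another were allowed. There the count of the class's own markers had to exceed the other by at least 3. Among 14252, 7527 and 27614 cells in libraries 1, 2 and 3, the epithelial class held 7812, 5429 and 19420 cells and the fibroblast class 2123, 416 and 1696. The endothelial class held 395, 23 and 40 cells and the macrophage class 92, 34 and 34. The gates were set on these same markers, so their levels in the classes are no independent check. All 8 own markers were detected in each class and library. Markers of another class stayed far below the class's own: summed epithelial markers, for example, were at 19.0 to 42.3 CPM (counts per 1000000 UMIs of the group) in fibroblasts, against 1727 to 2070 CPM in epithelial cells. Their part in the results was not tested. A further 1162, 291 and 3765 cells carried markers of several classes and were left out. Pairs of libraries shared 24 to 119 cell barcodes. A doublet score marked 39 of 40 endothelial cells and 32 of 34 macrophages of library 3, so cells were not removed by it, and results without the scored cells are given where a call was lost. Their removal leaves 389, 18 and 1 endothelial cells and 75, 33 and 2 macrophages. With at least 20 cells needed for a sum, the endothelial class is then library 1 alone, whose spread is assumed to be that of the other classes, and the macrophage class is libraries 1 and 2. In summed counts, fewer cells with a transcript and fewer transcripts per cell cannot be told apart, so shares of cells are given beside levels.

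UMIs were summed per library and class, and the classes were compared with edgeR over 14872 genes. Fibroblasts against epithelial cells gave 6 of 8 tested genes past an adjusted p of 0.05, 3 higher and 3 lower, where 55.8% of all genes passed, 27.6% higher and 28.2% lower. Endothelial against epithelial cells gave 5 of 8, 2 higher and 3 lower, beside 42.7% of all genes (18.7% higher and 24.0% lower). Macrophages against epithelial cells gave 5 of 8, 2 higher and 3 lower, beside 46.8% (18.6% and 28.2%). Fibroblasts against endothelial cells gave 6 of 8, 4 higher and 2 lower, beside 34.8% (19.8% and 15.0%). Classes this far apart differ in a large share of all genes, so the direction and size for each gene carry more than these counts. *Has3* did not reach the level of the filter on low counts in enough sums and was not tested in these comparisons. Its 1167 UMIs lay mostly in the large epithelial sums. *Has1* and *Cemip*, near 0 in epithelial cells, could pass that filter only through the sums of fibroblasts. *Lyve1* could do so only through those of endothelial cells and macrophages. Their calls as higher there are thus of genes kept because they were high there, and their p values carry this limit.

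**Figure D1:**
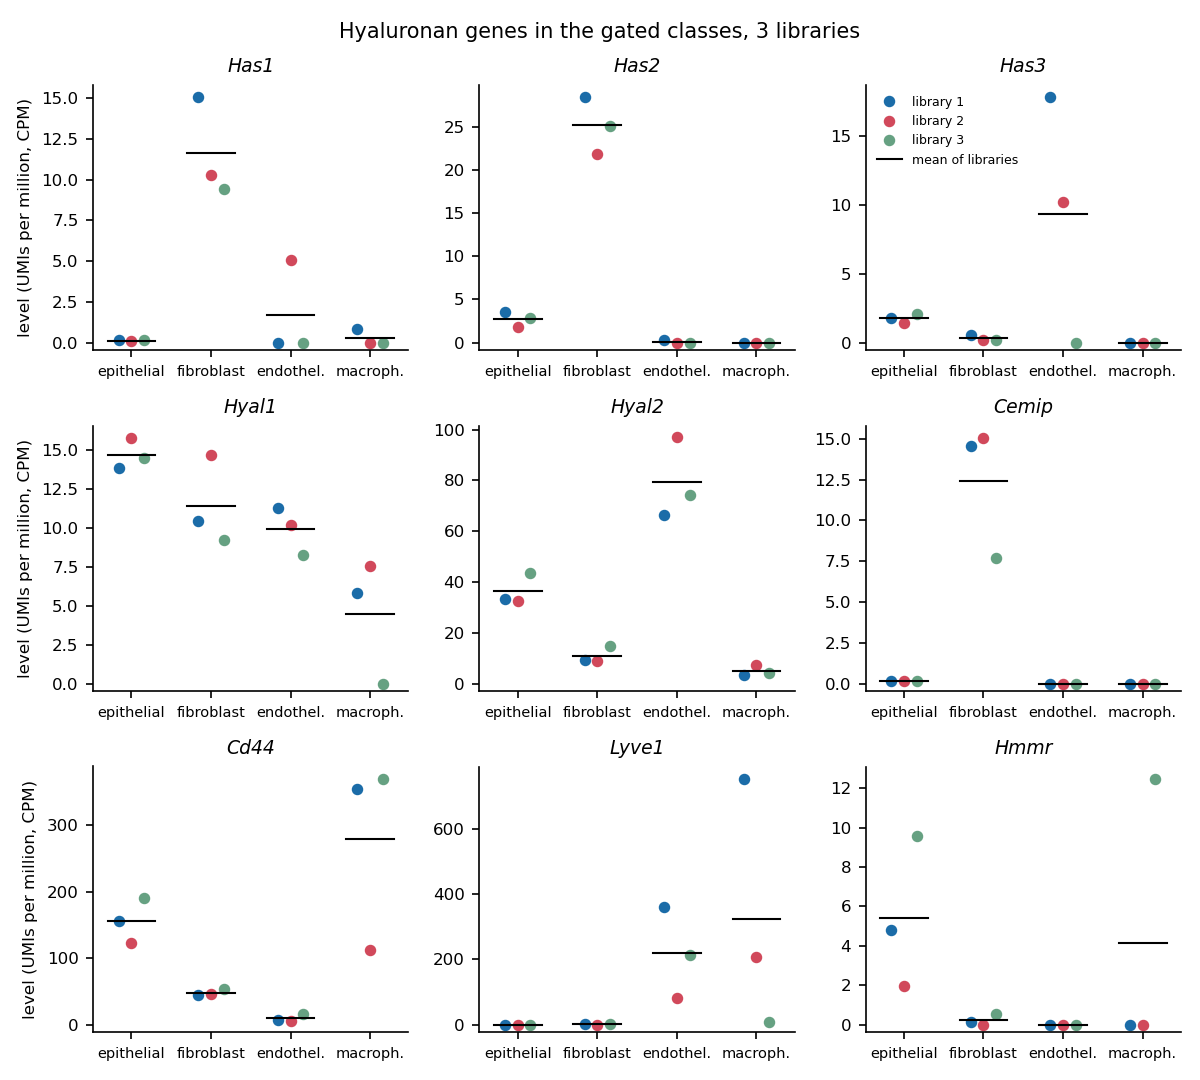
Level of each of the 9 genes (y axis, CPM, linear from 0) in the epithelial, fibroblast, endothelial and macrophage classes (x axis). Each point is 1 library (blue library 1, red library 2, green library 3) and each bar the mean of 3 libraries. The points of *Has1*, *Has2* and *Cemip* stand highest of these 4 classes in fibroblasts in every library, and those of *Hyal2* in endothelial cells. For *Has1* and *Cemip* in libraries 2 and 3, the endothelial floors of 3 counts (15.3 and 12.4 CPM) lie above the fibroblast points. Their order against endothelial cells is not resolved there. The macrophage floors of libraries 2 and 3 (11.3 and 12.5 CPM) lie above the fibroblast points of *Has1*. For *Cemip* the floor of library 3 does so. The order against macrophages is not resolved at these points either. *Lyve1* in macrophages spans 8.32 to 752 CPM, and the endothelial and macrophage points of libraries 2 and 3 rest on 23 to 40 cells.

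*Has1* was higher in fibroblasts than in epithelial cells. Fibroblasts held 15.1, 10.3 and 9.43 CPM of *Has1* in libraries 1, 2 and 3, and epithelial cells 0.134, 0.0908 and 0.142 CPM. The ranges did not overlap, and the level in fibroblasts was 113-, 114- and 66.4-fold that of epithelial cells in the same library (log2 difference 6.52 ± 0.45 SE, adjusted p = 1.64e-08). A UMI of *Has1* was seen in 8.48%, 7.93% and 6.19% of fibroblasts (95% Wilson intervals 7.37 to 9.74%, 5.70 to 10.9% and 5.14 to 7.44%). In epithelial cells, which were sequenced more deeply (medians of 13956 to 17873 UMIs, against 8959 to 10898 in fibroblasts), the share was 0.166 to 0.211%. A UMI was also seen in 1 of 160 macrophages. Fibroblasts, 14.9%, 5.53% and 6.14% of the cells, held 79.8%, 47.2% and 61.4% of all *Has1* UMIs of their library. Muscle satellite cells held 0.218, 4.07 and 0.184 CPM, and in library 2 their 21 UMIs were 19.8% of the library's *Has1* UMIs. In endothelial cells 1 UMI of *Has1* was found, in library 2. Fibroblasts passed as higher than endothelial cells (adjusted p = 0.000510), and in library 1, with no endothelial UMI, they were at least 16.0-fold above the floor of 3 counts. In libraries 2 and 3 that floor lies above the fibroblast level, and without library 1, which holds most endothelial cells, the adjusted p was 0.265.

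*Has2*, the synthase that the mouse embryo needs for its heart, was higher in fibroblasts than in epithelial cells, where it was measurable too. Fibroblasts held 28.5, 21.9 and 25.1 CPM, and epithelial cells 3.52, 1.77 and 2.87 CPM. Every fibroblast value lay above every epithelial value, by 8.08-, 12.4- and 8.75-fold within libraries (log2 difference 3.21 ± 0.27 SE, adjusted p = 5.64e-07). The share of cells with a UMI was 14.5%, 13.9% and 16.4% in fibroblasts and 3.46%, 1.97% and 2.98% in epithelial cells. In endothelial cells 1 UMI was found in 458 cells, and none in 160 macrophages, which allows a share of up to 1.88%, in cells with medians of 3898 to 6405 and 4101 to 10834.5 UMIs. At 5000 UMIs a cell the mean shares were 8.38% in fibroblasts and 1.11% in epithelial cells. At that depth library 1 kept 70 macrophages with no UMI, which allows a share of up to 4.29% of cells with one, against 1.31% in its epithelial cells, so a difference in share was not detectable. Epithelial cells held 33.9%, 58.3% and 55.8% of all *Has2* UMIs. Endothelial cells were lower than epithelial cells (log2 difference -3.28 ± 0.96, adjusted p = 0.0151), but the call was lost without library 1 (adjusted p = 0.347), without library 3 (0.0886) and without scored doublets, with library 1 as the only endothelial sum (0.0521). Fibroblasts passed as higher than endothelial cells (adjusted p = 1.96e-05). With 1 UMI there the fitted size is not a measured fold, and the fibroblast level was 30.2, 1.43 and 2.03 times the level that 3 counts would give in the endothelial cells of libraries 1, 2 and 3. Macrophages also passed as lower than epithelial cells (adjusted p = 0.0268), with 0 UMIs in 3 libraries. In library 1 the floor of 3 counts stands at 2.48 CPM in macrophages, so epithelial cells were at least 1.42-fold higher there, while the floors of libraries 2 and 3, 11.3 and 12.5 CPM, lie above the epithelial levels. This call was lost without library 1 (adjusted p = 0.298), without library 3 (0.149), without scored doublets, with 2 macrophage sums (0.0717), and with DESeq2 (0.0786).

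Cells with both synthases were few. Of fibroblasts with a UMI of *Has1*, 30.6%, 18.2% and 27.6% also had one of *Has2*, against 13.0%, 13.6% and 15.7% of those without *Has1*. Cells with *Has1* were the deeper ones, with medians of 12921 to 15934 UMIs against 8743 to 10515. Thinning to 5000 UMIs left out the shallower cells and kept 1709, 379 and 1374 fibroblasts. The shares among them were 17.5%, 13.3% and 17.6% against 8.53%, 5.77% and 9.83%, from 14, 2 and 9 cells with both. The share of *Has2* was higher in cells with *Has1* in 3 of 3 libraries after thinning, with 2 such cells in library 2. The thinned cells with *Has1* still came from those with more UMIs before thinning (medians of 13253.5, 16593 and 11882 against 11907, 11286 and 10173), and the part of this in the shares was not tested.

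*Has3* showed another pattern. It was low in epithelial cells, at 1.77, 1.45 and 2.08 CPM, and lower in fibroblasts, at 0.572, 0.206 and 0.185 CPM. Endothelial cells of library 1 held 17.9 CPM, from 57 UMIs in 41 of 395 cells (10.4%, interval 7.74 to 13.8%). Library 2 had 2 UMIs in 1 of 23 endothelial cells, and library 3 none in 40. Without the filter on low counts, *Has3* was higher in endothelial than in epithelial cells by 2.81 ± 0.51 on the log2 scale (adjusted p = 0.000169), and lower in fibroblasts than in epithelial cells by 2.27 ± 0.55 (adjusted p = 0.00177). The endothelial level is in effect that of library 1, in which blood endothelial cells held 55 of the UMIs and lymphatic ones 2. No *Has3* UMI was found in 160 macrophages.

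*Cemip*, needed for hyaluronan breakdown outside the cell, was higher in fibroblasts than in epithelial cells. Fibroblasts held 14.6, 15.1 and 7.71 CPM, and epithelial cells 0.184, 0.141 and 0.159 CPM, with no overlap (log2 difference 6.23 ± 0.41 SE, adjusted p = 3.21e-07). No UMI was found in 458 endothelial cells or 160 macrophages. In library 1, the only library deep enough to say so, fibroblasts were at least 15.5-fold above endothelial cells, taking 3 counts as the floor. The call against endothelial cells (adjusted p = 0.000358) was lost without that library (0.0966). Few fibroblasts carried *Cemip*, but those that did carried much of it. It was seen in 47, 15 and 47 fibroblasts, that is 2.21%, 3.61% and 2.77%, with means of 7.04, 4.87 and 2.66 UMIs per positive cell. Cells with 5 or more UMIs, 15, 5 and 7 in number, held 81.6%, 76.7% and 48.8% of the UMIs. For *Has2*, positive fibroblasts held only 2.11, 1.83 and 1.46 UMIs on average. *Cemip* and *Has2* were seen together in 7, 0 and 5 fibroblasts, or 2.28%, 0% and 1.80% of those with *Has2*, against 2.20%, 4.19% and 2.96% of those without, so no joint detection stood out.

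*Hyal2*, the surface hyaluronidase, was lower in fibroblasts than in epithelial and endothelial cells. Endothelial cells held 66.5, 96.9 and 74.3 CPM, epithelial cells 33.2, 32.4 and 43.6, fibroblasts 9.32, 9.08 and 14.8, and macrophages 3.31, 7.52 and 4.16. Endothelial cells, epithelial cells and fibroblasts kept this order in all 3 libraries, without overlap. The macrophage values rest on 4, 2 and 1 UMIs, and their floors in libraries 2 and 3, 11.3 and 12.5 CPM, are near or above the fibroblast levels, so the order of these classes is not resolved there. Endothelial cells exceeded epithelial cells by 0.99 ± 0.22 on the log2 scale (adjusted p = 0.00222), a call lost without library 1 (adjusted p = 0.0606, log2 difference 1.06). Fibroblasts were below epithelial cells by a log2 difference of -1.71 ± 0.20 (adjusted p = 3.45e-06) and below endothelial cells by one of -2.70 ± 0.23 (adjusted p = 6.26e-07). Macrophages were below epithelial cells by one of -3.00 ± 0.42 (adjusted p = 3.72e-05). A UMI was seen in 36.0%, 40.6% and 43.6% of epithelial cells, in 139 of 395, 9 of 23 and 12 of 40 endothelial cells at 3898 to 6405 median UMIs, and in 3.26%, 2.94% and 2.94% of macrophages.

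*Hyal1*, the lysosomal hyaluronidase, showed no difference past the threshold between epithelial cells and fibroblasts or endothelial cells. Epithelial cells held 13.8, 15.8 and 14.5 CPM, fibroblasts 10.4, 14.7 and 9.19, and endothelial cells 11.3, 10.2 and 8.25. The endothelial values rest on 36, 2 and 2 UMIs. In libraries 2 and 3 they lie below the endothelial floors of 15.3 and 12.4 CPM, so the order of endothelial cells is not resolved there. The difference of fibroblasts from epithelial cells did not pass (log2 difference -0.40 ± 0.23, adjusted p = 0.152), nor did that of endothelial cells (-0.45 ± 0.33, adjusted p = 0.298). Macrophages, with 7, 2 and 0 UMIs, were lower than epithelial cells (-1.37 ± 0.44, adjusted p = 0.0195), a call lost without library 1 (0.145) and without library 2 (0.0694).

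*Cd44*, the main hyaluronan receptor, was higher in macrophages and epithelial cells than in fibroblasts and endothelial cells. Macrophages held 355, 113 and 370 CPM, epithelial cells 156, 123 and 191, fibroblasts 44.3, 46.6 and 53.8, and endothelial cells 7.53, 5.10 and 16.5. Macrophages and epithelial cells overlapped, through library 2. The macrophage class passed as higher (log2 difference 0.97 ± 0.32, adjusted p = 0.0226), but not without library 1 (adjusted p = 0.303), library 3 (0.0556) or scored doublets (0.174, from 2 macrophage sums). Fibroblasts were lower than epithelial cells by a log2 difference of -1.71 ± 0.31 (adjusted p = 0.000313) and endothelial cells by one of -4.24 ± 0.50 (adjusted p = 8.03e-06). Fibroblasts exceeded endothelial cells by 2.53 ± 0.51 (adjusted p = 0.00126, and 0.113 without library 1). A UMI of *Cd44* was found in 67.3%, 67.8% and 75.9% of epithelial cells and in 27.2%, 26.0% and 31.3% of fibroblasts. At 5000 UMIs a cell the means over libraries were 46.0% and 16.7%, and the order was the same.

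*Lyve1*, the receptor named for lymphatic vessels, was found in endothelial cells and macrophages. Endothelial cells held 361, 81.6 and 215 CPM, epithelial cells 0.318, 0.0504 and 0.0520 CPM (log2 difference 10.81 ± 1.22, adjusted p = 5.07e-06). Lymphatic endothelial cells, set apart by at least 3 of 5 lymphatic markers, numbered 68, 5 and 11. In library 1 they held 1101 UMIs of *Lyve1*, or 2374 CPM, and 55.9% of them had a UMI, while the 322 blood endothelial cells held 49 UMIs, or 18.1 CPM, with a UMI in 1.86%. Libraries 2 and 3 gave the same order from 14 against 2 and 52 against 0 UMIs. With only library 1 above 20 lymphatic cells, this difference has no test. Macrophages held 752, 207 and 8.32 CPM, a range of 908, 55 and 2 UMIs, and the class as a whole exceeded epithelial cells (log2 difference 11.55 ± 1.24, adjusted p = 2.63e-06). The macrophages of library 3 were thus unlike those of library 1, with 2 of 34 cells positive against 30 of 92. In fibroblasts *Lyve1* stood at 1.32, 0 and 0.678 CPM, which did not pass against epithelial cells (adjusted p = 0.0925) but did with the library as a block (log2 difference 2.48 ± 0.88, adjusted p = 0.0259). Summed endothelial markers were also higher in fibroblasts, at 21.2, 30.7 and 30.4 CPM against 3.23, 2.36 and 2.64 CPM in epithelial cells. Their part in this call was not tested. Many *Lyve1* UMIs lay outside these classes. In library 1, 43 cells that had at least 3 endothelial markers together with markers of another class were left out, and they held 1951 of the library's 4387 *Lyve1* UMIs.

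*Hmmr* was found in epithelial cells, at 4.80, 1.95 and 9.55 CPM, and hardly in fibroblasts, at 0.132, 0 and 0.555 CPM (log2 difference -4.29 ± 0.87, adjusted p = 0.00102). The mean epithelial level depended on the limits for barcodes and was higher with every barcode kept, as given in the last section. No UMI was found in 458 endothelial cells, and in library 1, which holds 395 of these, epithelial cells were at least 5.11-fold above the floor of 3 counts. In libraries 2 and 3 the floor lies above the epithelial level. That call (adjusted p = 0.0366) was lost without library 1 (0.427), without scored doublets, with library 1 as the only endothelial sum (0.0659), and with DESeq2 (0.0524). The macrophages of library 3 held 3 UMIs, all in 1 cell. Muscle satellite cells held 23 UMIs in library 2, in 3 of 603 cells, or 4.46 CPM, and none in the other libraries.

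Most tested genes of a wider list of hyaluronan biology were higher in fibroblasts than in epithelial cells. The list holds 29 genes in 4 groups, of which 24 were tested. In fibroblasts 21 were higher, 1 was lower and 2 did not pass, beside 27.6% and 28.2% of all genes, and the median log2 difference was 1.37, against -0.05 over all genes. These counts are a description, since the list was chosen with earlier results of these data known. Genes near 0 in epithelial cells could also pass the filter on low counts through the sums of fibroblasts or other classes. Of 7 genes that make the UDP-sugar precursors, 6 were higher. *Ugdh*, which makes UDP-glucuronic acid, stood at 92.8 to 116 CPM in fibroblasts and 48.4 to 72.6 CPM in epithelial cells (log2 difference 0.86 ± 0.21, adjusted p = 0.00336). *Gfpt2*, one of the enzymes that open the hexosamine pathway, stood at 84.8 to 167 against 0.999 to 1.98 CPM (6.63 ± 0.37, adjusted p = 1.33e-08). The other isoenzyme, *Gfpt1*, did not pass, at a log2 difference of 0.15 ± 0.21. *Pgm3*, which acts later in that pathway, stood at 40.3 to 53.4 against 14.8 to 18.3 CPM (adjusted p = 1.89e-05), while the differences of *Gnpnat1* (30.5 to 33.4 against 17.3 to 24.4 CPM, 0.00734) and *Ugp2* (126 to 163 against 97.4 to 101 CPM, 0.00907) were smaller. Among genes of binding and matrix, *Hapln1*, a link protein that ties hyaluronan to proteoglycans, stood at 7.83 to 21.3 CPM in fibroblasts and 0.0202 to 0.135 CPM in epithelial cells (adjusted p = 6.24e-07). *Habp4* was also higher in fibroblasts (31.6 to 37.7 against 16.9 to 17.4 CPM, 0.000104), as was the receptor gene *Tlr2* (17.8 to 19.4 against 1.45 to 1.97 CPM, 1.85e-08), which was at 58.8 to 150 CPM in macrophages. *Has2os*, the antisense partner of *Has2*, stood at 51.6 to 63.3 CPM against 6.53 to 10.8 CPM (2.63 ± 0.23, adjusted p = 1.62e-07).

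Of 15 listed genes that bind hyaluronan or build its matrix, 12 were tested. Of these, 11 were higher in fibroblasts and 1 did not pass, with the same limits from the list and the filter. *Vcan*, the large hyaluronan-binding proteoglycan versican, stood at 537 to 741 CPM in fibroblasts and 0.484 to 2.53 CPM in epithelial cells. *Tnfaip6*, which transfers heavy chains to hyaluronan, stood at 103 to 170 against 0.212 to 0.818 CPM, and *Ptx3*, which crosslinks such chains, at 17.8 to 38.0 against 0.0303 to 0.117 CPM. All 3 passed, with log2 differences of 8.66, 8.23 and 8.39. Among the turnover genes, the lysosomal *Hexa* and *Gusb* were higher in fibroblasts and *Cemip2*, a surface protein related to CEMIP, was lower (41.6 to 50.9 against 84.8 to 141 CPM, adjusted p = 5.10e-05). Thus *Cemip* and *Cemip2* differed in opposite directions between these classes.

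**Figure D2:**
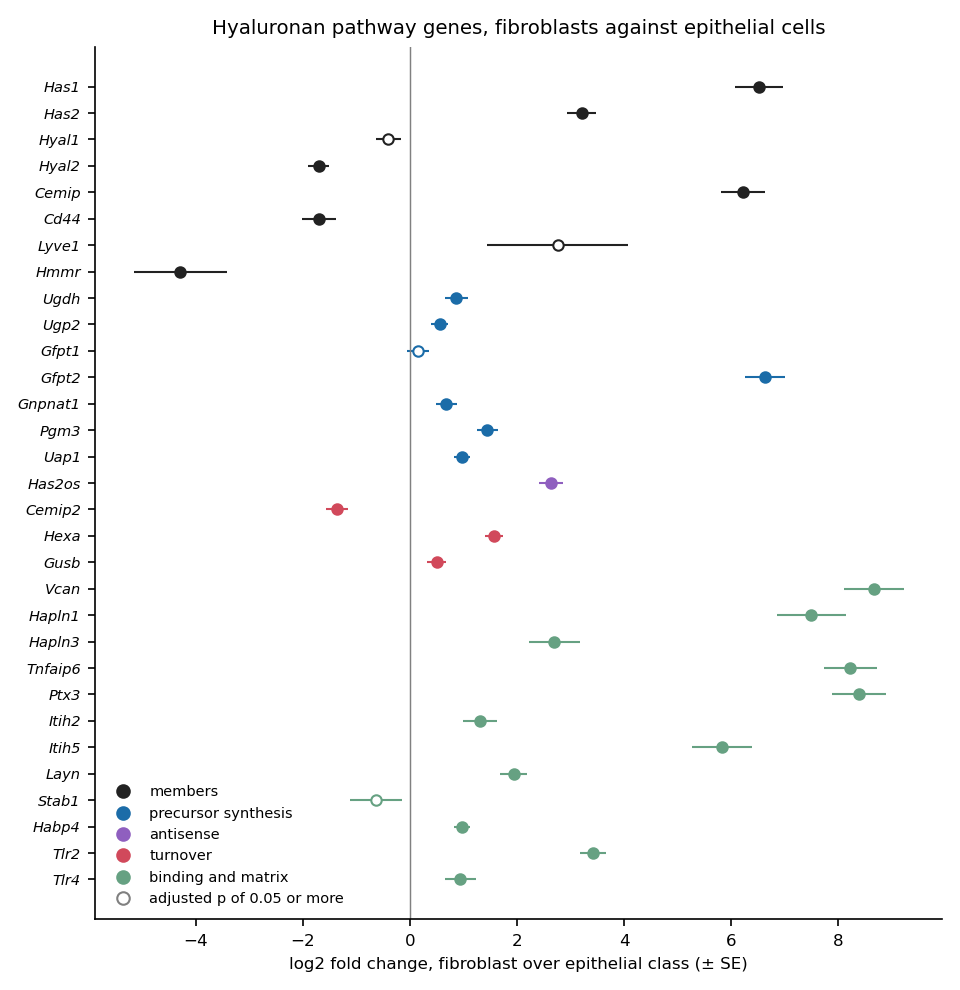
Log2 fold change of the hyaluronan genes between the fibroblast and epithelial classes (x axis, bars ± SE from edgeR, n = 3 libraries). Genes stand in rows by role, and open points did not pass an adjusted p of 0.05. Most points lie right of 0, and *Hyal2*, *Cd44*, *Hmmr* and *Cemip2* are the filled points left of it.

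Against epithelial cells, endothelial cells had 9 of the 24 genes higher and 4 lower, beside 18.7% and 24.0% of all genes. Macrophages had 7 higher and 5 lower, beside 18.6% and 28.2%. No precursor gene was higher in either. Macrophages held the lysosomal enzyme *Gusb* at 150 to 279 CPM, against 22.5 to 27.1 CPM in epithelial cells. *Stab1*, a scavenger receptor, stood at 216 to 316 CPM in macrophages and 81.6 to 140 CPM in endothelial cells, against 0.256 to 0.303 CPM in epithelial cells. Fibroblasts against endothelial cells had 12 genes higher, among them all 7 precursor genes, and 4 lower, beside 19.8% and 15.0% of all genes.

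Fibroblasts were next split by a UMI of *Hhip*, *Wnt16* or *Col23a1*, genes taken here as markers of a fibroblast group. Cells with a UMI numbered 1601, 346 and 1361, and those with none 522, 70 and 335. None of 6 tested hyaluronan genes passed, beside 3.51% of 13116 genes (2.05% higher and 1.46% lower). With DESeq2 the count was also 0, beside 726 of all genes. In edgeR an unadjusted p under 0.05 was reached by 4 of the 6, beside 1710 of the 13116 genes. The levels of *Has2* were 23.2, 18.8 and 25.0 CPM with a UMI and 45.6, 38.3 and 25.7 CPM without. *Cemip* stood at 11.7, 2.69 and 6.18 CPM with a UMI and 23.8, 81.9 and 14.5 CPM without. Values were lower in the cells with a UMI in 3 of 3 libraries for *Has1*, *Has2*, *Cemip* and *Cd44*, with log2 differences of -0.71 ± 0.28, -0.73 ± 0.24, -2.20 ± 0.69 and -0.48 ± 0.14. *Cd44* passed once the library was a block (adjusted p = 0.0169, against 0.123 without), 1 of 6 beside 9.76% of all genes. Of the wider list, 4 of 23 tested genes passed, each lower in the cells with a UMI. They were *Ugdh* (82.7 to 85.0 against 136 to 218 CPM, adjusted p = 0.0204), *Uap1*, the last enzyme of UDP-GlcNAc synthesis (67.7 to 80.7 against 110 to 150 CPM, 0.0239), *Itih5*, of the inter-alpha-trypsin inhibitor heavy chain family (0.0261), and *Acan*, the cartilage proteoglycan aggrecan (0 to 0.345 against 3.72 to 38.3 CPM, 0.0308).

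**Figure D3:**
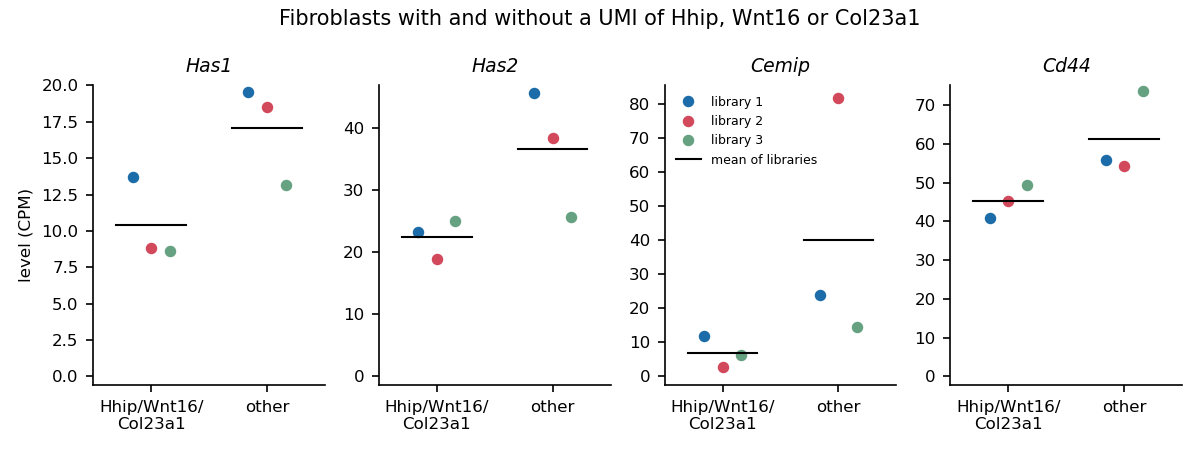
Level (y axis, CPM) of *Has1*, *Has2*, *Cemip* and *Cd44* in fibroblasts with and without a UMI of *Hhip*, *Wnt16* or *Col23a1*. Points are 3 libraries and bars their mean. The right column is higher in each library, though by only 1.03-fold for *Has2* in library 3, and the high *Cemip* point of library 2 comes from 70 cells.

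Within the epithelium, groups were set by fixed markers. In tissue, suprabasal cells lie above the basal cells of the vocal fold's stratified epithelium. Airway basal, airway secretory and ciliated cells belong to the respiratory epithelium. Here the names stand for marker rules, since the larynges were dissociated and neither layer nor site was measured. Suprabasal squamous cells were non-ciliated cells with at least 10 UMIs of *Krt13* and none of *Nkx2-1*. No limit was set on their basal markers, so basal or parabasal cells may be among them. Squamous basal cells had UMIs of *Trp63*, *Krt5* and squamous markers, with *Krt13* below that limit. *Has2* was highest in airway secretory cells, at 10.2, 5.46 and 5.68 CPM, and lowest in ciliated cells, at 0.148, 0.215 and 0.310 CPM. At 5000 UMIs a cell, the mean share of cells with a UMI was 3.25% in secretory cells. Without thinning, a UMI was found in 12.7%, 7.76% and 7.34% of secretory cells, and in 0.228%, 0.373% and 0.362% of ciliated cells. Secretory cells were the deeper ones, with medians of 18833, 23397 and 17696 UMIs against 11655, 15923 and 8614.5 in ciliated cells. The part of this depth in the shares was not tested. Squamous basal cells held 1.15, 0.820 and 1.80 CPM and airway basal cells 0.947, 0.747 and 3.23 CPM, and these overlapped. The secretory values lay above those of each other epithelial group without overlap. *Has3*, in contrast, was detected in ciliated cells at 3.84, 2.80 and 2.17 CPM, which overlapped the 2.29, 1.90 and 2.48 CPM of secretory cells. No test of secretory or ciliated cells was designed, so these are descriptions.

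**Figure D4:**
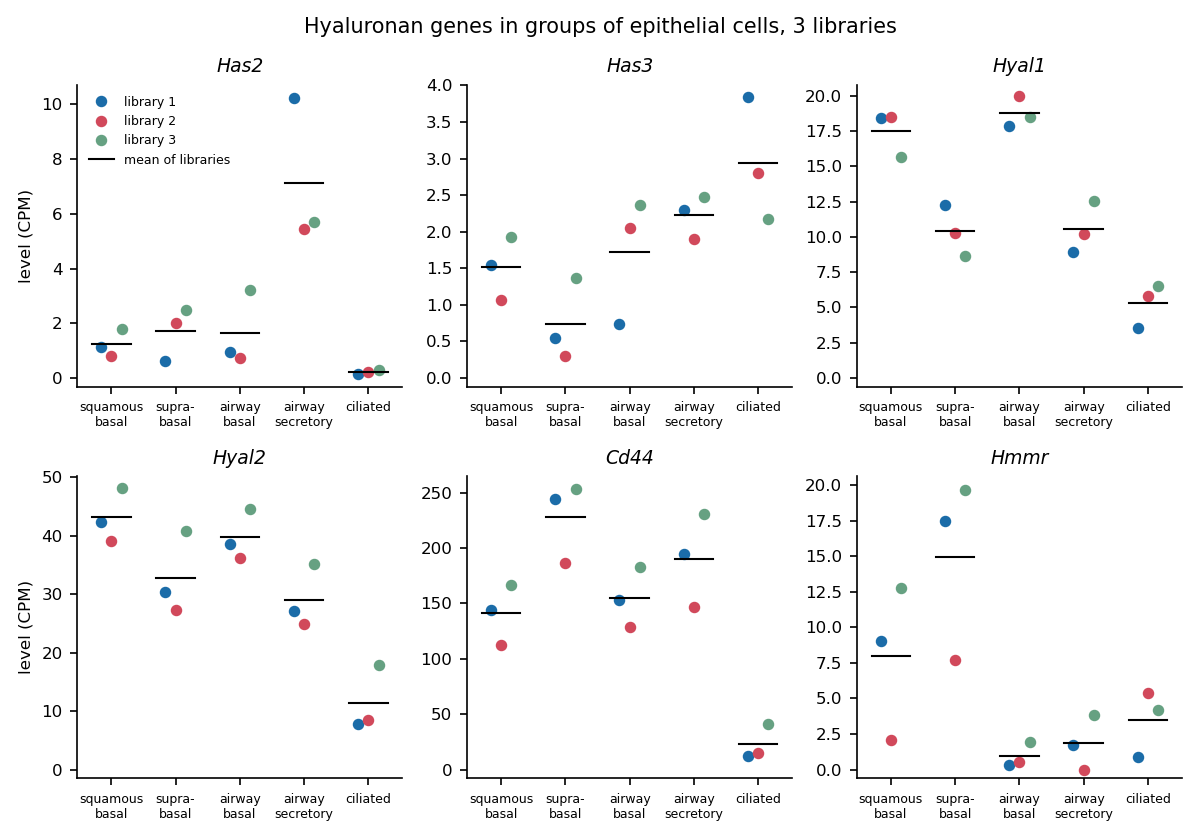
Level (y axis, CPM) of *Has2*, *Has3*, *Hyal1*, *Hyal2*, *Cd44* and *Hmmr* in 5 groups of epithelial cells (x axis), with 1 point per library and a bar at the mean. *Has2* stands above the other groups in airway secretory cells, *Cd44* has its highest mean in suprabasal cells, and *Hyal1*, *Hyal2* and *Cd44* are low in ciliated cells.

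The suprabasal and basal squamous groups, as set by these markers, differed in *Cd44*. Suprabasal cells held 244, 187 and 253 CPM and basal cells 144, 113 and 167 CPM, a rise within every library of 1.70-, 1.66- and 1.52-fold (log2 difference 0.84 ± 0.16, adjusted p = 0.0149, and 0.170 without library 1). *Hyal1* was lower in suprabasal cells, at 12.3, 10.3 and 8.62 CPM against 18.4, 18.5 and 15.6 CPM (-0.62 ± 0.17, adjusted p = 0.0463), a call lost when any 1 library was left out (adjusted p of 0.0786 to 0.203). These 2 of 6 tested genes stand beside 17.0% of 15185 genes. With the library as a block 4 of 6 passed, beside 41.1% of all genes, as *Hyal2* was also lower (-0.25 ± 0.09, adjusted p = 0.0430) and *Hmmr* higher (1.13 ± 0.18, adjusted p = 0.00121). Cycling cells made up 6.70%, 4.21% and 13.5% of suprabasal and 3.46%, 0.674% and 6.38% of squamous basal cells, so their share moved with *Hmmr* and *Cd44*, and its part in these differences was not tested. Airway and squamous basal cells differed in 1 of 6 tested genes, beside 18.1% of 15168 genes (9.26% higher and 8.89% lower). *Hmmr* was at 0.316, 0.560 and 1.90 CPM in airway basal and 9.02, 2.10 and 12.8 CPM in squamous basal cells (-2.88 ± 0.77, adjusted p = 0.0375, and 0.293 without library 1). In airway basal cells 0.461%, 0.330% and 0.644% were cycling, below the squamous basal shares just given, so the share of cycling cells moved with *Hmmr*, and its part in the difference was not tested. Levels of *Cd44* in these basal groups did not differ past the threshold (log2 difference 0.13 ± 0.15).

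*Hmmr* was higher in cycling than in other epithelial cells. Cycling epithelial cells, with at least 3 of 8 cycling markers that do not include *Hmmr*, numbered 130, 38 and 996. They held 197, 184 and 135 CPM of *Hmmr*, and the other epithelial cells 0.283, 0.285 and 1.01 CPM (log2 difference 8.21 ± 0.48, adjusted p = 7.69e-06). Of epithelial cells with 6 to 8 cycling markers, 88.7%, 90.5% and 84.9% had a UMI of *Hmmr*, and these 71, 21 and 337 cells held 87.5%, 81.9% and 84.9% of the *Hmmr* UMIs of the class. Of cells with 3 to 5 markers 23.7%, 23.5% and 12.1% had one, and of cells with none 0.274%, 0.375% and 0.914%. *Cd44* was also higher in cycling cells, at 261, 198 and 237 CPM against 154, 122 and 188 CPM (0.62 ± 0.16, adjusted p = 0.0204), a call lost without library 1 (0.166) and with every barcode kept (0.125). These are 2 of 6 tested genes, beside 27.4% of 17571 genes (13.3% higher and 14.1% lower). Of the wider list, *Ugdh* was higher in cycling cells (80.1 to 129 against 46.9 to 68.8 CPM, adjusted p = 0.00416) and 7 of 22 tested genes were lower, *Cemip2*, *Layn* and *Tlr4* among them.

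**Figure D5:**
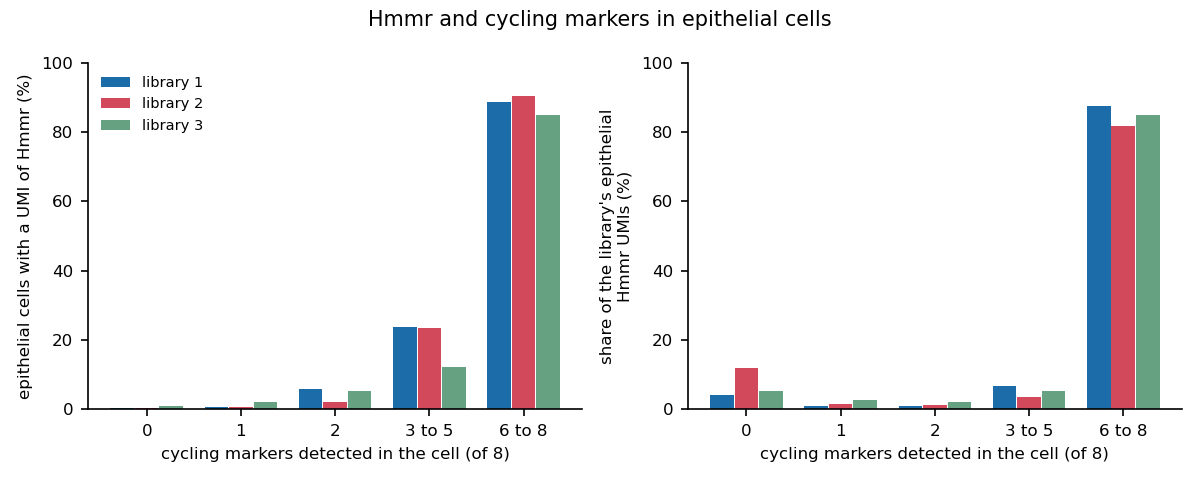
Epithelial cells by the number of 8 cycling markers detected (x axis). The left panel gives the share of cells with a UMI of *Hmmr* and the right panel the share of the library's epithelial *Hmmr* UMIs (y axes, %), with 1 bar per library. Cells with 6 to 8 markers hold 81.9 to 87.5% of the UMIs.

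The study's own split is by *Lrig1*, a cell being *Lrig1*+ with at least 1 UMI. This call moves with depth: *Lrig1*+ cells had medians of 15222 to 17998 UMIs and *Lrig1*- cells 6539 to 9748. Without a block no hyaluronan gene passed in all cells (of 9 tested), in epithelial cells (of 7) or in fibroblasts (of 6), and edgeR called 0 of 19948, 18489 and 13863 genes there (0% each). An unadjusted p under 0.05 was reached by 2610, 661 and 208 genes, and DESeq2 called 834, 87 and 2 genes, among them 1 hyaluronan gene, *Cemip*, in all cells. Both sums of a library come from 1 pool of animals, so the split was also fitted with the library as a block. In epithelial cells *Cd44* was then lower in *Lrig1*+ cells, at 148, 121 and 185 CPM against 173, 126 and 205 CPM (log2 difference -0.16 ± 0.03, adjusted p = 0.0371). The share of cells with a UMI ran the other way, at 73.4%, 72.1% and 80.8% against 59.5%, 59.6% and 68.8%, in the deeper *Lrig1*+ cells. With counts thinned to 5000 UMIs and *Lrig1* called on them, the shares were 46.6%, 38.4% and 52.8% against 44.8%, 39.1% and 54.3%, without 1 direction. *Hmmr* was lower too, at 4.15, 1.20 and 7.83 CPM against 6.03, 3.90 and 13.3 CPM (-0.91 ± 0.19, adjusted p = 0.0361). These 2 of 7 stand beside 10.3% of all genes called with the block. In fibroblasts none of 6 passed with the block either, beside 0.0721% of all genes.

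Over all cells, 5 of 9 passed with the block, beside 26.2% of all genes. *Hyal1* was higher in *Lrig1*+ cells, by 0.24 ± 0.06 on the log2 scale, while *Has1*, *Has2*, *Cemip* and *Lyve1* were lower by 0.88 ± 0.14, 0.45 ± 0.11, 2.41 ± 0.33 and 2.28 ± 0.59 (adjusted p of 0.00994 to 0.0475). The makeup of the groups moved with these values, as fibroblasts were 1258 of 24492 *Lrig1*+ and 2977 of 24901 *Lrig1*- cells, and its part in them was not tested. Within fibroblasts *Has1* and *Has2* were not lower in *Lrig1*+ cells in any library, while within epithelial cells *Has2* was lower in 3 of 3, with differences of -0.326, -0.182 and -0.714 CPM. *Cemip* was lower in *Lrig1*+ fibroblasts in 3 of 3 libraries, at 7.38, 2.36 and 6.50 CPM against 17.9, 21.9 and 8.53 CPM, but did not pass (log2 difference -1.38 ± 0.42, and -1.20 with the block, adjusted p = 0.344). *Has1* stood in fibroblasts at 15.7, 10.6 and 11.2 CPM in *Lrig1*+ and 14.8, 10.2 and 8.22 CPM in *Lrig1*- fibroblasts.

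By pattern over 17 sums of class and library, the genes most like each member among 14201 genes were ranked by the Pearson correlation of log2(CPM + 1), as a description only, since the points share libraries and most of the spread is between classes. For *Has2* they were *Mgat4c*, *Cybrd1* and *Cpa6* (r of 0.983 to 0.985), for *Has1* *Glis1*, *Dnajc3* and *Tex2* (0.894 to 0.927) and for *Cemip* *Cdh19*, *Syndig1* and *Sp5* (0.996 to 0.998). For *Hyal2* they were *Pik3c2b*, *Lzts1* and *Bmx* (0.930 to 0.967), for *Cd44* *Stk4*, *Sema4a* and *Frrs1* (0.900 to 0.915), and for *Lyve1* *Slc28a2*, *Gvin1* and *Csf2rb* (0.949 to 0.973). *Has3* was nearest to *Sgpp2*, *Deup1* and *Mfsd2a* (0.913 to 0.948), *Hyal1* to *Acvr2a*, *Slc18b1* and *Apex2* (0.931 to 0.947) and *Hmmr* to *Cep55*, *Cenph* and *BC016579* (0.786 to 0.810).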

How the data were processed

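The deposited files hold UMI counts per gene and cell, 1 matrix for each of 3 libraries (10x Genomics GEM-X 3' v4). The authors made these counts with Cell Ranger 8.0.1 and mm39, per the labels. No normalization had been applied. Barcodes were dropped below 500 or above 8000 genes, below 1000 or above 40000 UMIs, or above 8% of UMIs from mitochondrial genes, leaving 49393 of 60530 barcodes and 116450244 to 353728717 UMIs per library, with medians of 10761, 14331 and 11199 UMIs per cell. UMIs are counts of molecules, and intervals (95%, Wilson) and floors of 3 counts cover counting error only.

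Cells were put in classes by marker UMIs, with thresholds set after the marker distributions were seen. Counts were summed per library and group where it held at least 20 cells in the tests and compared with the quasi-likelihood test of edgeR 4.0.16 (TMM, filterByExpr, two-sided, Benjamini-Hochberg over all genes tested, threshold 0.05) in R 4.3.3. Folds are log2 with standard errors. The members and gene lists were chosen with earlier results of these data known. All 9 members are named. Of the other hyaluronan genes listed, those are named that passed in 1 of the comparisons with a mean of at least 10 CPM in 1 group. For each member the 3 genes with the highest Pearson correlation of log2(CPM + 1) over class-by-library sums are given, among genes with at least 10 CPM in 1 sum. The 4 class comparisons share sums, so their values are not independent.

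Same-numbered sums come from the same pool of animals. The correlations of their deviations from group means were 0.355, 0.330 and 0.514 for fibroblasts and epithelial cells. They were low for endothelial and epithelial cells (0.0961, 0.0831 and 0.120) and higher for suprabasal and basal cells (0.417, 0.626 and 0.766). For the *Lrig1* split they were 0.766, 0.810 and 0.918 in epithelial cells and 0.809, 0.812 and 0.865 in all cells. The fits without a block do not use this pairing, and a fit with the library as a block was run beside each comparison. Other alternatives were DESeq2 1.42.0, no filter on low counts, each library left out, every barcode kept, gates of 2 and 4 markers, and cells thinned to 5000 UMIs, without shallower cells. Removal of scored doublets was added after seeing the data. The test was also run on simulated counts, which were drawn without the pairing of sums within a library. Promoters were read from GRCm39 with GENCODE vM39. A listed gene, and promoters other than those printed, are not reported here.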

Additional observations from a re-analysis of the deposited data

Results flagged for a closer look

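*Has2* differed in opposite directions with *Lrig1* in epithelial cells and fibroblasts, though by little in the fibroblasts of library 1. In epithelial cells *Lrig1*+ cells held 3.41, 1.71 and 2.64 CPM and *Lrig1*- cells 3.74, 1.90 and 3.36 CPM, a mean difference of -0.407 CPM (-0.254 without library 3). In fibroblasts *Lrig1*+ cells held 28.7, 32.5 and 28.6 CPM and *Lrig1*- cells 28.4, 16.2 and 22.7 CPM, a mean difference of 7.50 CPM. The differences were 0.311, 16.3 and 5.91 CPM, and the mean was 3.11 CPM without library 2, which holds 132 *Lrig1*+ fibroblasts, and 8.30 to 11.1 CPM without library 3 or 1. Every library moved one way in epithelial cells and the other way in fibroblasts. This was the rule by which *Has2* was picked out of all members, so it is no support for the difference. The difference between the classes was not tested, and neither class passed by itself with or without the block.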

How the results depend on the processing

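Among 38 member values called without or with the block, none changed direction under the alternatives run. Of 27 calls of members, 14 held under every alternative run; among the alternative values of these calls 242 stayed past the threshold in the same direction and 26 missed it. Leaving out 1 library gave 2 to 6 members past the threshold for endothelial against epithelial cells (5 with all), 2 to 4 for macrophages (5), 3 to 7 for fibroblasts against endothelial cells (6), 0 to 1 for the *Hhip* split (0), 1 to 2 for cycling cells (2), 0 to 1 for suprabasal cells (2) and 0 to 1 for airway basal cells (1). Calls over all genes fell too without library 1, from 6356 of 14872 to 2884 of 14335 for endothelial against epithelial cells. In the same fits they fell from 6963 to 4000 for macrophages and from 5179 to 2336 for fibroblasts against endothelial cells. For cycling cells they fell from 4816 of 17571 to 1550 of 17656, and the other splits are given below. Removing scored doublets gave 3 members for macrophages, from 2 libraries. It left library 1 as the only endothelial sum, so its *Lyve1* level of 362 CPM is that of library 1 (361 CPM with all cells) and not a moved mean of 3 libraries (219 CPM). With gates of 4 markers library 2 had 19 endothelial cells and gave no sum. Dropping the filter gave 1 for the *Hhip* split. Keeping every barcode gave 1 for cycling cells and moved the epithelial *Hmmr* level from 5.43 to 10.3 CPM. DESeq2 gave 1 for *Lrig1* over all cells.

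With the library as a block, 1 member passed in the *Hhip* split, 4 in suprabasal cells, 2 for *Lrig1* in epithelial cells and 5 over all cells, and *Lyve1* passed in fibroblasts; the block changed no other call of a member. Over all genes the calls went with the block from 461 to 1280 in the *Hhip* split, from 2588 to 6234 in suprabasal cells, from 2752 to 5829 in airway basal cells, and from 0 to 1904, 10 and 5231 for *Lrig1* in epithelial cells, fibroblasts and all cells. Without library 1 they were 16, 170 and 579 in the first 3 of these. The causes were not tested.

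Thinned to 5000 UMIs, mean shares of cells fell to 4.12% for *Has1* and 8.38% for *Has2* in fibroblasts, to 0.846% for *Has3*, 7.60% for *Hyal1*, 16.7% for *Hyal2* and 46.0% for *Cd44* in epithelial cells, and to 10.5% for *Lyve1* in endothelial cells of library 1. The endothelial and macrophage classes of libraries 2 and 3 hold 23 to 40 cells, and their floors of 11.3 to 15.3 CPM lie above most levels of the synthases. The lymphatic against blood comparison was not run, since only library 1 held at least 20 lymphatic cells.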
